A study of Mus musculus with 71 samples.

Results

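H3K27me3 peaks at promoters that the peak list of wild-type (WT) mouse embryonic stem cells (mESCs) held, and that the list of mESCs lacking H1c, H1d and H1e, genes of linker histone H1, did not (H1-TKO mESCs), were examined together with the RNA of their genes. A member was a WT peak whose centre lay within 1 kb of the start of a protein-coding transcript in mm9 and which no H1-TKO peak overlapped by 1 bp. Of 6957 WT peaks 2642 lay at such promoters, and 886 of these had no overlapping H1-TKO peak. They belonged to 846 genes. The members were selected on the presence of a peak in the 2 lists, so presence and score are given as a description with no test, and they were split at a MACS score of 100 (the score is −10 times the log10 of the p-value that the peak caller MACS gave). Of the members 131 had a score of at least 100 and 755 had a lower score.

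The WT cells were the mESC line R1 and the H1-TKO cells were derived from it with CRISPR/Cas9 as clones picked from single cells, so a clone and the loss of H1 cannot be told apart. Both were cultured with LIF and had no other treatment in the data used here. There was 1 peak list per genotype, and the second ChIP-seq replicates were not analysed here, so no value of a peak has a replicate check. Intervals given for shares are 95% Clopper-Pearson intervals and cover counting error only. RNA-seq was available for 2 libraries per genotype. The sample labels name the genotypes of these 4 libraries opposite to the names and headers of the tables, and the tables' own names were used throughout. In the 1999 rows read from the study's source data for its RNA comparison, each library equalled the column of the genotype used here in 100% of rows. With the labels, every RNA direction given here would be reversed. The growth text of the same labels names Hela cells, a human line, whereas their source and cell type fields give mESCs and the tables hold mouse accessions.

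H3K27me3 is written by Polycomb repressive complex 2 (PRC2), whose EZH1 or EZH2 subunit methylates lysine 27 of histone H3 and whose EED subunit binds the finished mark and stimulates further methylation nearby. In mESCs the mark is known for covering CpG-rich promoters of developmental genes that are silent or transcribed at low levels. Linker histone H1 binds nucleosomes where DNA enters and leaves and compacts chromatin.

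To check the labels, the knocked-out genes were read in every library. The transcripts of these histone genes mostly lack a poly(A) tail, and the libraries were selected for poly(A), so their counts were low. The normalized counts (reads divided by the authors' size factor of each library) of H1f2, which encodes H1c, were 11.6 and 56.7 in WT against 18.7 and 7.4 in H1-TKO mESCs. Those of H1f3 (H1d) were 3.9 and 41.4 against 1.1 and 0.0, and those of H1f4 (H1e) were 5.4 and 19.6 against 0.0 and 2.1. Both WT libraries were above both H1-TKO libraries for H1f3 and H1f4, whereas H1f2 overlapped. The limma test gave an adjusted p of 0.39 for H1f2 and 0.105 for H1f3, and H1f4 was under the filter on low values.

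The libraries held 6951619 to 10538507 reads counted on genes. The summed normalized counts of 10 embryonic stem cell markers were 31485 and 43307 in WT against 54718 and 55112 in H1-TKO mESCs, with Nanog listed at 0 in all 4 libraries. Of the 8 tested, Sox2, Klf4, Tfcp2l1 and Dppa5a were higher and Tdgf1 was lower (limma adjusted p under 0.05). That sum therefore does not stand for each marker. The 6 neural markers summed to 3852 and 2298 in WT against 813 and 883.6 in H1-TKO mESCs, and of these Nes fell by 2.87 on the log2 scale (SE 0.49, limma adjusted p = 0.0105) and Tubb3 fell by 0.87 (SE 0.21, limma adjusted p = 0.029). The 7 fibroblast markers summed to 354 and 299 in WT against 510.1 and 576 in H1-TKO mESCs, with Dcn and Postn at 0. Thy1 rose by 2.02 (SE 0.21, limma adjusted p = 0.0029) and Col1a1 fell by 1.97 (SE 0.35, limma adjusted p = 0.0112), so the sum does not show a common direction. The endoderm, trophoblast and mesoderm lists summed to between 28.4 and 328 in each library. In these bulk samples fewer cells of a type and less RNA per cell cannot be told apart, and the part of the neural list in the results below was not tested.

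The sequence of the members was read first, since CpG density is the feature that promoters with H3K27me3 are best known for. Of the 113 members with a score of at least 100 that hold 200 bases outside any annotated exon, 8 are printed, from NCBIM37 (the same build as mm9) and on the strand of the gene, with CG dinucleotides in capitals. Each is the stretch of 200 bases nearest to the centre of its peak. The first 3 are among the 6 members of highest score and have no H1-TKO peak within 100 kb. Rasl12 was chosen for its lack of CG, and the others because the RNA of their genes passed the test in 1 or the other direction.

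Cemip, chr7:91234466-91234665, minus strand: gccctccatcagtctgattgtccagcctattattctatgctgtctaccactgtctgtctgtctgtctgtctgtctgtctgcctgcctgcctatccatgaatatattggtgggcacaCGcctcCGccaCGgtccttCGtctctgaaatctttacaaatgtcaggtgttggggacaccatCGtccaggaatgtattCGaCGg
Slc25a21, chr12:58298460-58298659, minus strand: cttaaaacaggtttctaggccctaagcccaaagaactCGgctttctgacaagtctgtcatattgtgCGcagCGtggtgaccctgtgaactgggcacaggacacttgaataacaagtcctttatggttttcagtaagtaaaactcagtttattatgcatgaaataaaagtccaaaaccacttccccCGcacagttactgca
Adamts3, chr5:90311647-90311846, minus strand: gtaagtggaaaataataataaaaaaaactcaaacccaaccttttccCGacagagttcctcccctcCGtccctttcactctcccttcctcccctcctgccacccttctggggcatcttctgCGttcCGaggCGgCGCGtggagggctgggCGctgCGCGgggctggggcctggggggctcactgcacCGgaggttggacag
Rasl12, chr9:65247008-65247207, plus strand: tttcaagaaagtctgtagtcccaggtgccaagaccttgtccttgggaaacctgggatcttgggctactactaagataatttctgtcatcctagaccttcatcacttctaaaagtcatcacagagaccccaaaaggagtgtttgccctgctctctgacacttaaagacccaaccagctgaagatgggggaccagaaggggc
Igsf21, chr4:139802017-139802216, minus strand: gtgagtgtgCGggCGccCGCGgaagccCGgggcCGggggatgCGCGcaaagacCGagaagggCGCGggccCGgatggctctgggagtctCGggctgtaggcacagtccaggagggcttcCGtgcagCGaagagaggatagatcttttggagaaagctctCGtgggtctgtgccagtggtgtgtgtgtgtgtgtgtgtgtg
Scube2, chr7:117008242-117008441, minus strand: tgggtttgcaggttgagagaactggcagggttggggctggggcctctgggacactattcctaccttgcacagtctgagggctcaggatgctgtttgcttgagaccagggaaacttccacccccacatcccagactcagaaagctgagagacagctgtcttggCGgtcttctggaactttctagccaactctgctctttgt
Nrg1, chr8:33118510-33118709, minus strand: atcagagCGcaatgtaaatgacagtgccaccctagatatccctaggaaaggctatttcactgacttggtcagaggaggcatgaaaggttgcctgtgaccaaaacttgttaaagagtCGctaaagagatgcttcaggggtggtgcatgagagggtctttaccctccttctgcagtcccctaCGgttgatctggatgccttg
Stxbp6, chr12:46174725-46174924, minus strand: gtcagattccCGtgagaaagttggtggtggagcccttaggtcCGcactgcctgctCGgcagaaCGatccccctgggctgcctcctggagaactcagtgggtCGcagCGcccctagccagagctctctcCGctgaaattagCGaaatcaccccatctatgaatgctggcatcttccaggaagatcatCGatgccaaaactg

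The stretch of Igsf21 held 16 CG dinucleotides and 65.0% GC and that of Adamts3 held 11 and 60.5%. Stxbp6 had 9, Cemip 7, Slc25a21 4, Nrg1 3 and Scube2 1, and Rasl12 had 0 at 48.0% GC. The members of high score ranged from CpG-rich stretches to 1 with no CG. All 8 lie upstream of the annotated start or in an intron, between 101 bp before and 971 bp after the start.

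Over all members, 300 bases at the peak centre held a median of 9 CG dinucleotides (quartiles 5 and 19), against 15 (7 and 25) at the 1751 WT promoter peaks that an H1-TKO peak overlapped, the mitochondrial genome left out. The ratio of observed to expected CG had a median of 0.474 (quartiles 0.268 and 0.679) at the members and 0.595 (0.375 and 0.79) at the overlapped peaks. It was 0.594 around all 45957 protein-coding starts, where the window was centred on the start and not on a peak. The order was the same within both score classes, although scores were not matched, since 26 of the 131 members of at least 100 exceeded 150 against 671 of all 1199 WT promoter peaks of at least 100. Among peaks of at least 100 the medians were 0.532 and 0.637, and among those under 100 they were 0.464 and 0.52. GC content followed the same order, with medians of 55.2% and 59.7%. A ratio above 0.6 together with a GC content above 50%, as used for CpG islands, was met by 268 members (30.2%) and 810 overlapped peaks (46.3%). Promoter peaks listed in H1-TKO only had a median ratio of 0.434. These are descriptions of sequence, with no test.

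**Figure D1:**
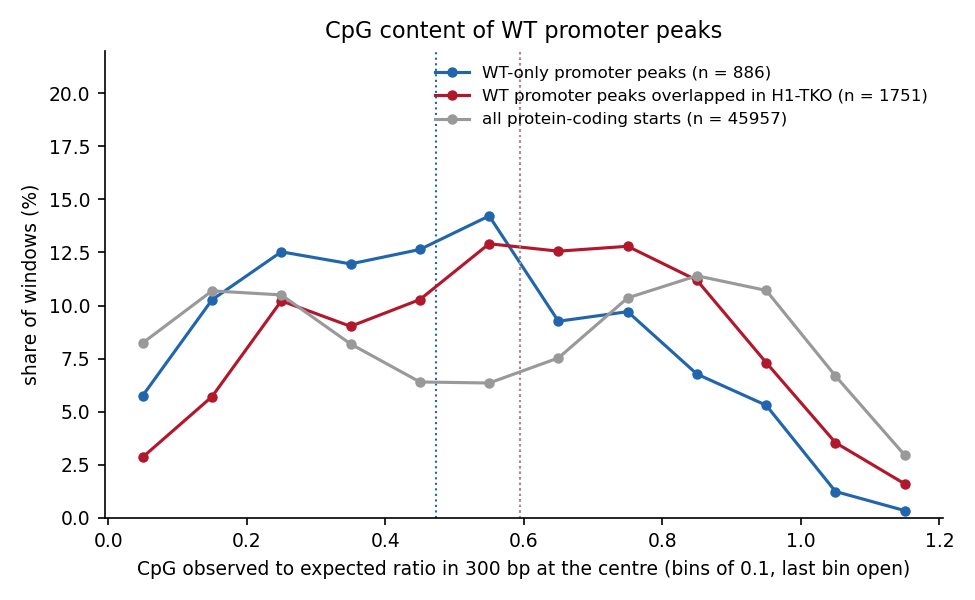
Share of 300-bp windows (y axis, %) by the ratio of observed to expected CG dinucleotides (x axis, bins of 0.1, the last bin open) for WT-only promoter peaks, WT promoter peaks overlapped in H1-TKO mESCs and all protein-coding starts, with medians as dotted lines. The WT-only peaks lie to the left of the overlapped peaks, with medians of 0.474 and 0.595, and the starts have 2 humps where the peaks have 1 broad one.

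The motif GGGCGG, read on both strands, was present in 24.9% of the member windows, 31.1% of the overlapped windows and 45.3% of the windows around all starts. CCAAT was present in 25.8%, 23.7% and 33.2% of them. TATAAA was present in 5.08%, 4.34% and 9.16%. Peak windows were centred on the peak, for the members a median of 492 bp from the start, and the windows of all starts on the start itself. Shares at peaks and at all starts thus differ in position too, which was not separated.

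The members had low scores within the WT list. Their median score was 66.2 (quartiles 55.8 and 84.4, range 50.03 to 231), against 122 (80.01 and 186) for the 1756 WT promoter peaks that an H1-TKO peak overlapped. They were also narrower, with a median width of 432 bp against 882 bp, and 89 members (10%) were wider than 1 kb against 783 overlapped peaks (44.6%). A score under 60, close to the floor of the list, was held by 324 members (36.6%, 33.4 to 39.8). Of all 6957 WT peaks 3106 (44.6%) had no overlapping H1-TKO peak, against 33.5% (31.7 to 35.4) of the promoter peaks, so the members were a smaller share of promoter peaks than the background of all WT peaks. Centres lay downstream of the start for 599 members (67.6%, 64.4 to 70.7) and for 73.6% of the overlapped peaks.

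The share of WT promoter peaks without an H1-TKO peak fell steadily with the WT score. It was 66.4% (324 of 488) for scores of 50 to 60, 53.5% (237 of 443) for 60 to 75 and 37.9% (194 of 512) for 75 to 100. Above the split it was 19.9% (105 of 528, 16.6 to 23.6) for 100 to 150 and 3.87% (26 of 671, 2.55 to 5.63) above 150. The reverse comparison, H1-TKO promoter peaks with no WT peak, showed the same fall at lower shares, from 53.9% to 2.42%. At a score of at least 100 it held 72 of 1053 H1-TKO promoter peaks (6.84%, 5.39 to 8.53) against 131 of 1199 WT promoter peaks (10.9%, 9.22 to 12.8). The study lists similar read numbers for both libraries. With 1 list per genotype the enrichment of a library cannot be told apart from its genotype.

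**Figure D2:**
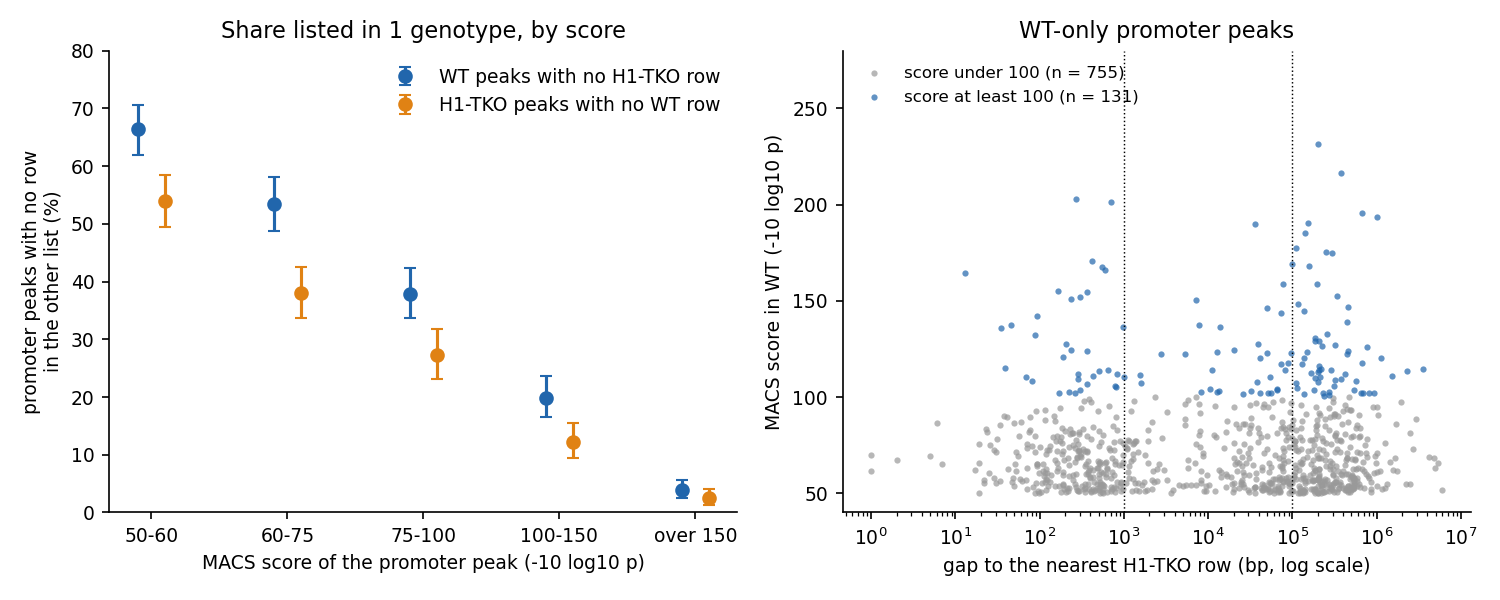
Left, share of promoter peaks with no row in the list of the other genotype (y axis, %, with 95% Clopper-Pearson intervals) by MACS score (x axis), for WT and H1-TKO peaks. Right, MACS score of each of the 886 WT-only promoter peaks against the gap to the nearest H1-TKO row (log scale, dotted lines at 1 kb and 100 kb, touching rows drawn at 1 bp). The shares fall from 66.4% to 3.87% for WT peaks, and the members of both score classes fall into a group near an H1-TKO row and a group far from any.

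Many members had an H1-TKO peak close by. The nearest one lay within 1 kb for 282 members (31.8%, 28.8 to 35.0), and for 339 (38.3%, 35.0 to 41.6) there was none within 100 kb. Of the 131 members with a score of at least 100, 35 had an H1-TKO peak within 1 kb and 60 (45.8%, 37.1 to 54.7) had none within 100 kb. By gene, 264 of 846 (31.2%) had an H1-TKO peak within 1 kb of a start, and 151 (17.8%) also had another WT promoter peak that was overlapped in H1-TKO mESCs. Being listed in WT only was thus a property of the peak and, for those genes, not of the promoter as a whole. There were 65 genes with 2 or more members, and Auts2, Marchf1, Mecom, Mfsd4b2 and Phf19 had 3 each.

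The 12 members with the highest scores were at genes of different kinds. The highest score, 231, was at Cemip, a gene for a protein that breaks down hyaluronan, where the nearest H1-TKO peak was 202352 bp away. Slc25a21, a mitochondrial carrier of dicarboxylates, had a score of 217 and a gap of 378319 bp. Adamts3, a protease of the extracellular matrix, had 193 and a gap of 993687 bp. The peak at 196 lay within 1 kb of starts of Lrba and of Mab21l2, an eye development gene inside Lrba. Ripk4, a kinase needed for epidermal differentiation, had 190.2, Dcdc2a 189.7, Gfra3, a receptor of the GDNF family, 186, Slc9a3, a sodium and proton exchanger, 177, Ddx25, a testis RNA helicase, 175 and Igsf21, a synaptic adhesion protein, also 175. A pair of them had an H1-TKO peak nearby. Cbx2, a chromodomain subunit of Polycomb repressive complex 1 (PRC1), had a score of 203 and a gap of 269 bp, and Tex15, a germ cell gene, had 201 and a gap of 706 bp.

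Around the split the members did not form separate groups. Just above it were Asxl3 (score 101.9), Cpz (101.8), the shared promoter of Ccdc92 and Zfp664 (101.7), Add3 (100.9) and Gabrb2 (100.7). Just below it were Wnk4 (99.8), Brinp2 (99.8), Etl4 (99.8), Pgbd5 (99.3) and Arsj (99.1).

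Gene families were then described by the share of their genes, among those with a WT promoter peak, whose WT promoter peaks were all WT-only. Over all 2273 such genes it was 30.6% (695 genes, 28.7 to 32.5). Homeobox genes, which encode transcription factors that pattern the embryo, stood at 18 of 40 (45%, 29.3 to 61.5). Their highest scores were 102.6 at En2, 96.5 at Hoxb3, 87.8 at Irx5 and 84.4 at Gsx2, and the other 14 lay between 52.6 and 80.3. Numbered Zfp and Zscan zinc finger genes stood at 10 of 21 (47.6%, 25.7 to 70.2), with Zfp664 and Zfp469 highest. Adam, Adamts and Mmp metalloprotease genes stood at 9 of 20 (45%, 23.1 to 68.5), with Adamts3 highest. The intervals of these families include the share over all genes.

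Other developmental families lay on both sides of the overall share. Fox genes stood at 3 of 8 (37.5%, 8.52 to 75.5) and the group of Klf, Sp, Zic, Gli, Gfi, Egr, Snai, Sall and Prdm genes at 4 of 11 (36.4%, 10.9 to 69.2). Of 13 basic helix-loop-helix genes on a list limited to some symbols of the family, 0 had WT-only peaks (0 to 24.7). That list does not stand for the family, since Myod1 (score 83.3), Epas1 (71.6), Tcfl5 (59.7), Mycl (52.55) and Sim1 (50.3), of the same family but not on the list, were members. These 5 were named after their values were seen. The Wnt pathway, which controls self-renewal and axis formation, stood at 5 of 33 (15.2%, 5.11 to 31.9), with Fzd6 (64.2), Wnt3a (63.3), Sfrp2 (57.9), Rnf43 (54.5) and Dkk1 (52.6), that is a receptor, a ligand and 3 inhibitors, all of low score. Potassium channels stood at 6 of 37 (16.2%, 6.19 to 32.0) and neurotransmitter receptors at 8 of 46 (17.4%, 7.82 to 31.4). The intervals of these 3 families include the overall share. Among the receptors the serotonin receptor gene Htr1d (155) and the GABA receptor genes Gabra2 (122.6) and Gabrb2 had scores of at least 100. Solute carriers, the largest family with 19 of 71 (26.8%, 16.9 to 38.6), and cadherins and protocadherins, with 7 of 19 (36.8%, 16.3 to 61.6), lay near the overall share. The families were compared by their intervals only, genes of 1 cluster share a region, and no family was tested.

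The RNA of the member genes was used neither to choose the peaks nor to split them. Of the 846 genes 802 had an accession in the RNA tables, and 187 of these had a mean normalized count under 1. Of those 187 genes 133 had more than 1 accession, a class in which reads of shared exons may not have been counted, so a gene listed at 0 may still be transcribed. Cemip was at 12.4 and 6.5 in WT against 4.4 and 7.4 in H1-TKO mESCs, and Slc25a21 and Adamts3 were listed at 0 in all 4 libraries. Per kb of the longest coding transcript the median level of the member genes was 2.47 normalized counts in WT (quartiles 0.231 and 17.0) and 2.53 in H1-TKO mESCs (0.29 and 18.9). That of genes with overlapped promoter peaks only was 2.32 and 2.19. Genes with no WT promoter peak had a median of 4.38 per kb in WT (quartiles 0 and 109.9), and 40.3% of them were under 1 per kb, against 38.2% of member genes.

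For 393 member genes the representative accession passed the filter of a mean normalized count of at least 10 and was tested. Of these, 39 (9.92%, 7.15 to 13.3) were higher in H1-TKO mESCs and 35 (8.91%, 6.28 to 12.2) were lower (limma on log2 of the normalized count + 1, Benjamini-Hochberg adjusted p under 0.05). Over all 11113 accessions tested 9.84% were higher and 10.7% were lower, so in this fit the member genes stood near the background in both directions. The median log2 fold change of the member genes was 0.10 (quartiles −0.59 and 0.90), against −0.03 over all accessions (−0.50 and 0.46). The 635 tested genes with overlapped promoter peaks only had 11% higher and 11.2% lower calls with a median of −0.03. At an unadjusted p under 0.05 there were 145 of 393 member genes and 4187 of 11113 accessions. With edgeR on the recovered reads 36 were higher and 30 lower (9.51% and 9.95% of all accessions), and with DESeq2 42 and 39 (9.51% and 11.6%).

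The 64 tested genes with a member score of at least 100 had 7 higher (10.9%, 4.51 to 21.2) and 4 lower (6.25%, 1.73 to 15.2). The 230 tested genes whose member had no H1-TKO peak within 10 kb had 23 higher (10.0%) and 22 lower (9.57%). Without the genes of chromosomes 1, 8, 11 and Y, 34 of 317 were higher and 25 were lower, against 9.28% and 9.55% of all accessions there. The counts depended on the libraries. Without WT replicate 1 they were 113 higher (28.8%) and 64 lower (16.3%), against 24.1% and 25.1% of all accessions, so that higher calls were above and lower calls below the background. Without WT replicate 2 they were 75 (19.1%) and 102 (26%), against 21.5% and 23.1%. Without H1-TKO replicate 1 they were 9 (2.29%) and 17 (4.33%), against 1.85% and 3.57%, and without H1-TKO replicate 2 they were 9 (2.29%) and 12 (3.05%), against 1.79% and 3.47%. With the total of the recovered reads as the scale, the median log2 fold change of all accessions moved from −0.03 to 0.13 and the split of member calls became 52 higher and 21 lower, beside 13.2% higher and 7.03% lower over all accessions.

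Of the 11 called genes with a member score of at least 100, 7 rose and 4 fell. Atp1b2, a beta subunit of the sodium pump with a peak score of 151, had normalized counts of 233 and 346 in WT against 853 and 818 in H1-TKO mESCs. Both H1-TKO libraries were far above both WT libraries, a log2 rise of 1.55 (SE 0.22, adjusted p = 0.00599). The member at Atp1b2 lay 237 bp from an H1-TKO peak. Slc1a1, a neuronal glutamate transporter with a peak score of 115, went from 69.0 and 127 to 378 and 377, a log2 rise of 2.00 (SE 0.31, adjusted p = 0.00797). Its member lay 39 bp from an H1-TKO peak, and another WT promoter peak of the gene was overlapped in H1-TKO mESCs.

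Igsf21, whose CpG-rich stretch is printed above, was at 14.0 and 27.3 in WT against 132 and 82.2 in H1-TKO mESCs, a log2 rise of 2.36 (SE 0.47, adjusted p = 0.0161). Scube2, which helps to release Hedgehog ligands and whose printed stretch holds 1 CG, was at 4.7 and 2.2 against 26.4 and 23.2, a rise of 2.60 (SE 0.70, adjusted p = 0.0403). Neither had an H1-TKO peak within 100 kb. The other genes that rose were Ppp1r36, a regulatory subunit of protein phosphatase, by 2.86 (SE 0.49), the carboxypeptidase gene Cpz by 2.14 (SE 0.41) and the lipid kinase gene Pik3c2b by 0.74 (SE 0.21). The genotypes did not overlap for any of the 7 genes that rose. Without H1-TKO replicate 1 the calls of Igsf21 (adjusted p = 0.131), Scube2 (0.234), Ppp1r36 (0.0808), Cpz (0.0938) and Pik3c2b (0.26) were lost, and without H1-TKO replicate 2 those of Scube2 (0.194), Cpz (0.113) and Pik3c2b (0.293), with fold changes that kept their direction. Atp1b2 and Slc1a1 passed in every alternative run.

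In this score class 4 genes fell. Nrg1, a growth factor that binds ErbB receptors, was at 90.0 and 57.8 in WT against 9.9 and 10.5 in H1-TKO mESCs, and fell by 2.70 on the log2 scale (SE 0.47, adjusted p = 0.0111). The member at Nrg1 was 35 bp from an H1-TKO peak, and those at Stxbp6 and Nlgn2 were 640 and 824 bp from one. Stxbp6, which binds syntaxins of the secretory machinery, fell by 2.70 (SE 0.62, adjusted p = 0.0249) from 59.7 and 30.5 to 4.4 and 7.4. The metallothionein gene Mt1 had high counts, 2427 and 4835 in WT against 1177 and 1298 in H1-TKO mESCs, and fell by 1.47 (SE 0.29, adjusted p = 0.0153). Nlgn2, an adhesion protein of inhibitory synapses, fell by 0.64 (SE 0.18, adjusted p = 0.0484), a call that edgeR, DESeq2, quantile normalization, scaling by total reads and no filter did not give. It was also lost without H1-TKO replicate 1 (adjusted p = 0.394) or 2 (0.256), and that of Stxbp6 was lost without H1-TKO replicate 1 (0.095). Nrg1 and Mt1 passed in every alternative run.

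**Figure D3:**
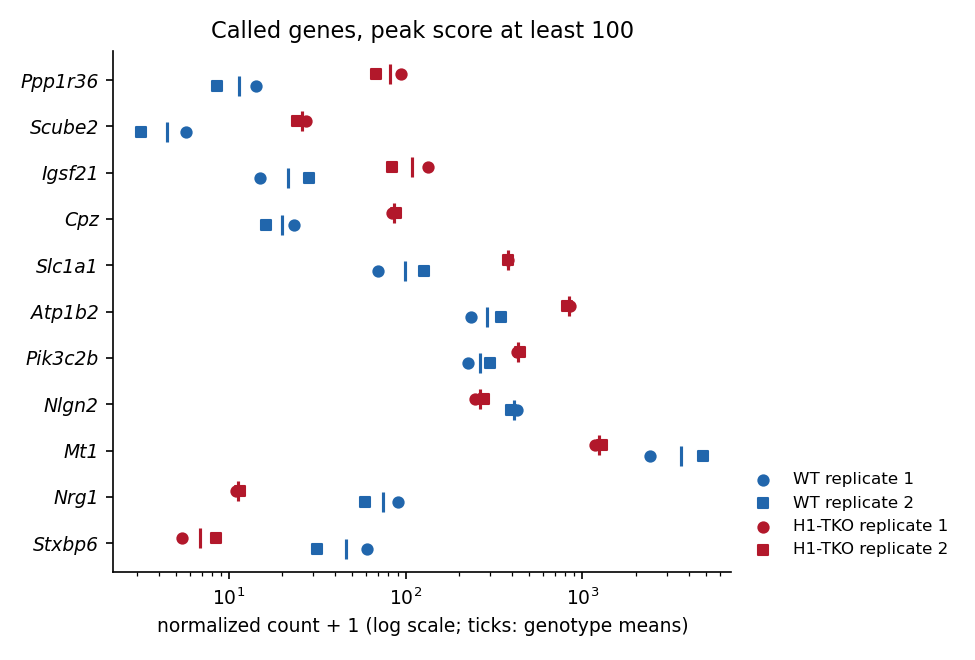
Normalized count + 1 (x axis, log scale) in each of 2 WT and 2 H1-TKO libraries for the 11 genes with a member score of at least 100 and an adjusted p under 0.05, ordered by fold change, with ticks at the genotype means. The 7 upper genes have both H1-TKO libraries above both WT libraries and the 4 lower genes have them below.

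The largest rises among all member genes were at low counts in WT mESCs. The filter took the mean of all 4 libraries, so a gene with a mean under 10 in WT was tested only if its H1-TKO counts were higher. Low WT counts among the rises thus follow in part from the filter, and the same holds for falls to low H1-TKO counts. Elapor1, a gene of the endosome and lysosome, went from 5.4 and 3.3 to 60.6 and 54.8 normalized counts, a log2 rise of 3.48 (SE 0.56, adjusted p = 0.00893). Abcb4, a phospholipid exporter of bile, rose by 3.11 (SE 0.72) from 1.6 and 3.3 to 29.7 and 25.3. For both genes the member lay under 300 bp from an H1-TKO peak and another promoter peak was overlapped. Camk2n1, an inhibitor of the kinase CaMKII, rose by 2.80 (SE 0.53) from 18.6 and 7.6 to 76.0 and 105. The netrin receptor gene Unc5a rose by 2.75, the sodium channel gene Scnn1a by 2.71, the cadherin gene Cdh22 by 2.52, the kinesin gene Kif19a by 2.45 and the synaptic adhesion receptor gene Adgrb3 by 2.38. The adjusted p of these last 5 lay between 0.0322 and 0.0495. The members at Unc5a and Kif19a, and 1 of those at Cdh22, lay 173, 188 and 260 bp from an H1-TKO peak. Ppp1r36 and Scube2 complete the 10. Without H1-TKO replicate 1 all of these but Camk2n1 were lost, with Elapor1 at an adjusted p of 0.058 and Abcb4 at 0.167. Without H1-TKO replicate 2 all but Elapor1 and Ppp1r36 were lost, with Camk2n1 at 0.087 and Abcb4 at 0.132. edgeR did not call Unc5a (adjusted p = 0.0669) or Scnn1a (0.0589), DESeq2 did not call Adgrb3 (0.0643) or Scube2 (0.0553), and with no filter Unc5a, Scnn1a, Cdh22, Kif19a, Adgrb3 and Scube2 were lost, at 0.06 to 0.1.

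The largest falls came from genes whose WT libraries often differed among themselves. Sema3e, a guidance cue of the semaphorin family, was at 704 and 163 in WT against 28.6 and 9.5 in H1-TKO mESCs, and fell by 4.27 (SE 0.74, adjusted p = 0.0109). Flnc, the muscle filamin, was at 2036 and 820.3 against 247 and 248 and fell by 2.38 (SE 0.37, adjusted p = 0.00828). Its member lay 121 bp from an H1-TKO peak, and another WT promoter peak of the gene was overlapped. In both genes WT replicate 1 was the higher WT library, as it was for Nes (2920.2 against 849). Dropping that library shrank the log2 fold change of Flnc from −2.38 to −1.73, whereas dropping the other WT library enlarged it to −3.04. The size of this fall thus depended on the WT library used. Why the WT libraries differed was not tested. The log2 fold change was −3.41 at Mmp23, −3.05 at the chloride transporter gene Clcn5, −2.58 at the desmocollin gene Dsc2, −2.43 at the microtubule protein gene Mapre2 and −2.41 at Zc3h12c, beside Nrg1 and Stxbp6. With WT replicate 1 dropped, the falls of Dsc2 (−1.61), Clcn5 (−2.72) and Mmp23 (−3.24) were smaller, and that of Mapre2 (−2.46) was slightly larger. Mapre2 and Clcn5 had 3 and 2 accessions, so their counts may miss reads. The call of Dsc2 was lost without H1-TKO replicate 1 (adjusted p = 0.0612), and those of Mmp23 (0.18), Mapre2 (0.208) and Zc3h12c (0.0933) without H1-TKO replicate 2. That of Clcn5 was lost without WT replicate 1 (0.0596), H1-TKO replicate 1 (0.139) or H1-TKO replicate 2 (0.0562). With no filter Clcn5, Dsc2, Mapre2, Mmp23 and Stxbp6 were lost (0.0542 to 0.0904), and edgeR did not call Mapre2 (0.058). Sema3e and Flnc passed in every alternative run.

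By family the calls were few, and the called genes were named after their values were seen. Over all accessions 9.84% were higher and 10.7% were lower, and these lists are too short to be read against those shares. Of 19 homeobox member genes 5 were tested. Pou3f1, a POU factor of the epiblast and of neural cells, fell by 2.13 (SE 0.36, adjusted p = 0.0103) from 379 and 194 to 55.1 and 68.5, and Hoxc13 rose by 1.55 (SE 0.41, adjusted p = 0.0367) from 27.2 and 20.7 to 61.7 and 82.2. The 25 solute carriers had 17 tested genes, of which Slc1a1, Slco4a1 (rise of 1.54) and Slc7a4 (rise of 1.37) rose and 1 fell. Of 6 tested metalloprotease genes Mmp23, Mmp25 and Adamts8 fell by limma, 2 fell by edgeR and 3 by DESeq2. Lower calls over all accessions were 10.7%, 9.95% and 11.6%, and the list is too short to be read against those shares. Boc, a Hedgehog coreceptor, rose by 1.58 (SE 0.34, adjusted p = 0.0197). None of 7 tested zinc finger genes passed in limma, edgeR or DESeq2, with 1 at an unadjusted p under 0.05, and none of 4 tested Wnt pathway genes did, with 0. Hoxc13, Boc, Slc7a4 and Adamts8 lost their call without H1-TKO replicate 1 (adjusted p of 0.164, 0.164, 0.171 and 0.0981) or 2 (0.312, 0.107, 0.303 and 0.292), and Mmp25 without H1-TKO replicate 1 (0.209). edgeR did not call Adamts8 (0.0524). The members at Pou3f1 and Adamts8 lay 382 and 431 bp from an H1-TKO peak.

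Polycomb genes were themselves among the members. Phf19, a PRC2 accessory subunit with 3 members (highest score 77.6), was at 288 and 400.3 in WT against 226 and 172 in H1-TKO mESCs, with a log2 fold change of −0.78 (SE 0.25, adjusted p = 0.0639). Cbx2 was at 480.2 and 518 against 431 and 335, with a log2 fold change of −0.39 (SE 0.19, adjusted p = 0.175). Bmi1, another PRC1 subunit (score 83.0), was at 77.6 and 67.6 against 20.9 and 46.3, with −1.19 (SE 0.46, adjusted p = 0.108). None of these 3 genes passed the adjusted threshold in limma without a replicate term. Their genotypes did not overlap, but how often that held over all accessions was not counted. The runs that left out 1 WT library called far more of all accessions, as given above, and are not read for these genes. Of the 12 genes of the PRC2 list 9 were tested, and Rbbp7 rose. Of the 20 genes of the PRC1 list 14 were tested, of which Pcgf1 rose and Cbx7, Phc1 and Kdm2b fell. Over all accessions 9.84% were higher and 10.7% lower, and both lists are too short to be read against those shares. Ezh2, Suz12 and Phf1, each with more than 1 accession, were under the filter.

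Member genes were not restricted to silent genes, and 12 of them had a mean normalized count of at least 1000. The share of all genes at that level was not counted. The highest were Zmat3, a p53 target, at 2216 and 2284 in WT against 3308 and 2911 in H1-TKO mESCs (log2 rise of 0.46, SE 0.12, adjusted p = 0.0391), Pole, the catalytic subunit of DNA polymerase epsilon (log2 fold change −0.40, SE 0.12, adjusted p = 0.0524), and Mt1. Igf2r, an imprinted receptor of insulin-like growth factor, was at 2275 and 2248 against 2322 and 2341 (0.04, SE 0.12, adjusted p = 0.808). Rap1b and Zfp664 followed, with 0.19 and −0.22. The member scores of these 6 genes were 54.1 to 112, with Zfp664 and Mt1 above the split. For Zmat3, Pole and Zfp664 the start nearest to the member belonged to another gene, 4930429B21Rik, Pxmp2 and Ccdc92. The member of Rap1b lay 947 bp before the start. That of Igf2r lay 30 bp from an H1-TKO peak, and another WT promoter peak of Igf2r was overlapped. The call of Zmat3 was lost without H1-TKO replicate 1 (0.458) or 2 (0.244). Mfap3l (peak score 93.0) stayed at or under 1.1 normalized counts, Rtbdn (56.8) at or under 6.5, and Nfatc1 (64.4) was listed at 0.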

How the data were processed

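H3K27me3 ChIP-seq peak lists (1 per genotype) and RNA-seq tables (2 libraries per genotype) of WT and H1-TKO mESCs were used. ChIP reads had been placed on mm9 by the authors with Bowtie2, filtered with SAMtools and passed to MACS, whose score (−10 log10 p) is the deposited value of each peak. The lists hold neither reads nor spike-in scaling, so the reads behind a peak are not known here. The study lists similar read numbers for both libraries, and a better enriched library can list more weak peaks. RNA reads were mapped and counted by the authors with Subread and featureCounts and divided by DESeq2 size factors, and this deposited signal per accession is the normalized count. Whole reads were recovered for 100% of values (tolerance 0.01 read), 6951619 to 10538507 per library.

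Peaks were placed by their centre on GENCODE M1 (NCBIM37), with 1 kb on either side of protein-coding starts. Sequence was read from NCBIM37. A RefSeq table (assembly GRCm38.p6) gave symbols, not coordinates, for 33650 of 34010 accessions. The accession with the highest mean stood for a gene. limma 3.58.1 in R 4.3.3 (eBayes with trend) was run on log2(normalized count + 1) over the 11113 accessions with a mean of at least 10, with Benjamini-Hochberg adjustment. Fold changes are on that scale and understate those of low genes. edgeR 4.0.16 and DESeq2 1.42.0 on recovered reads, other pseudocounts, filters and scalings, a replicate term, each library left out, and other overlap, promoter and score limits were the alternatives. The limma step was tested on simulated data. The study describes its duplicates as independent experiments, and p-values measure the spread between them. Scripts used Python 3.11.15, numpy 2.4.6, pandas 2.3.3 and scipy 1.17.1.

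Genes were named by rule: the 12 highest scores, 5 on either side of the split, the 10 largest rises and falls among called genes whose genotypes did not overlap, called genes of score at least 100, the 6 highest means, examples that the paper shows, and family examples. The members, rules and lists were chosen with earlier results of these data known. Some genes that the rule names are not reported here.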

Additional observations from a re-analysis of the deposited data

How the results depend on the processing

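The members depended on how a missing overlap was defined. With a required cover of 50% of the WT peak, 44.5% of the promoter peaks were WT-only and 278 of these had a score of at least 100, and when an H1-TKO peak within 1 kb counted as overlap the share was 22.9%. A promoter of 500 bp gave 450 members, 70 of them with a score of at least 100, and one of 2 kb gave 1394 (35.9%). Counting only H1-TKO peaks with a score of at least 60 gave 39.5%, and using only WT peaks with a score of at least 75 gave 325 members (19%). These follow from how each alternative is built.

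The calls among member genes (39 higher, 35 lower) became 23 and 15 with no filter (3.26% and 2.13% of 705, against 3.02% and 3.38% of all 20632 accessions), where more accessions entered the adjustment, and 52 and 21 with the total of the recovered reads as the scale. Fewer genes entered the subsets. Genes with no H1-TKO peak within 2 kb of a start gave 22 and 22 of 241 tested, and those with a score of at least 100 gave 7 and 4 of 64. Those with a promoter of 500 bp gave 19 and 15. Genes with no H1-TKO peak within 10 kb, chosen after seeing the data, gave 23 and 22 of 230. Over all accessions 9.84% were higher and 10.7% lower. Leaving out 1 library gave 9 to 113 higher and 12 to 102 lower genes (1.79% to 24.1% and 3.47% to 25.1% of all accessions), with 1 library of a genotype assumed to vary like the other genotype. The cause was not tested. With the replicate block, limma called 74 and 60 (18.8% and 15.3%, against 13.7% and 16% of all accessions), with Phf19 (adjusted p = 0.0138) and Bmi1 (0.0425) among them. The replicate numbers were not shown to pair the libraries, since deviations of equally numbered libraries had a correlation of 0.01 over 11113 accessions.

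Over the 47 named genes tested, 493 values kept direction and side of the threshold, 82 lost a call, 19 gained one and 1 changed sign. That was Tex15, not called, at −0.01 without WT replicate 2 and 0.56 without WT replicate 1. Of the 36 called named genes 27 lost the call without H1-TKO replicate 1 or 2, 19 lost it with no filter, and 8 kept it in every alternative. With 2 libraries per genotype and counts near 10, small changes were not detectable.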

Other observations

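The share of WT promoter peaks that were WT-only differed between chromosomes. On chromosome 1 it was 42 of 203 (20.7%, 95% Clopper-Pearson interval 15.3 to 26.9) and on the X chromosome 15 of 24 (62.5%, 40.6 to 81.2), and both intervals exclude the share over all chromosomes, 33.5%. On the other numbered chromosomes it lay between 26.3% and 43.5%. These values were looked at across all chromosomes, were not tested and have no replicate.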
